A study of Mus musculus with 6 samples.

Results

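The genes described here encode the protein subunits of the cytosolic ribosome, as measured by RNA-Seq in the mouse hippocampus. Members were chosen by symbol: Rps or Rpl followed by a number, with at most 1 letter a, x, l, or y after it, together with Rplp0, Rplp1, Rplp2, and Rpsa. Of 14477 genes listed in the expression matrix, 76 were members, 31 of the small (40S) subunit and 45 of the large (60S) subunit. The rule took 83 symbols of the GENCODE annotation. The other 7, the protein-coding genes Rpl10l, Rpl24, Rpl39l, and Rpl3l and the pseudogenes Rpl32l, Rpl6l, and Rps4l, are not analysed here. All 76 members had over 3 reads in each mouse, and 75 had over 100 reads in all 6 mice.

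The study compared untreated Phf21bΔ4/Δ4 mice (replicates 2, 3, and 6) with untreated Phf21b+/+ mice (replicates 5, 7, and 8) of a C57BL/6J background, and sequenced each hippocampus separately. The Phf21bΔ4/Δ4 line carries a CRISPR/Cas9 deletion within exon 4 of Phf21b in all tissues from the germ line on, so no cell type is singled out by the model. Young adult littermates of both sexes were used in the study, and the labels give no sex, age, litter, or dissection record per mouse. Xist and Y-linked genes, by which every library read as female, are given below. The kit used total RNA and removed ribosomal RNA, so ribosomal RNA itself was not measured.

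Every ribosome holds 1 copy of nearly all of these proteins beside its RNA, and the stalk proteins are the known exception with several copies. Their mRNAs are among the most used in a cell and begin with a run of pyrimidines at the 5′ end, the TOP sequence. Through this sequence the kinase complex mTORC1 and the RNA-binding protein LARP1 set how strongly the mRNAs are translated and how long they persist. In neurons, ribosomal protein mRNAs are found in dendrites and axons as well as in the cell body.

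The start of the gene holds the TOP sequence, so windows of 30 bases around the annotated start, 15 before and 15 after it, are shown for the one member called lower (Rpl39), for a stalk protein (Rplp2), for Rps6, for the pair Rps27 and Rps27l, and for a pair at either end of the changes (Rps3, among the largest decreases, and Rps16, whose genotypes overlapped). The sequences are from RefSeq (GRCm38.p6), read 5′ to 3′ on the strand of the gene, and capitals mark the longest pyrimidine run in the window.
Rpl39 (chrX:37085208-37085237, minus strand): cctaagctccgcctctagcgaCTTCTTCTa
Rplp2 (chr7:141447636-141447665, plus strand): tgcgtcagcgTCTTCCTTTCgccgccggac
Rps6 (chr4:86857353-86857382, minus strand): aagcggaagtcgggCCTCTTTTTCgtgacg
Rps27 (chr3:90213634-90213663, minus strand): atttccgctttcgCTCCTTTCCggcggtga
Rps27l (chr9:66946071-66946100, plus strand): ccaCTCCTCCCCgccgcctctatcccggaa
Rps3 (chr7:99483695-99483724, minus strand): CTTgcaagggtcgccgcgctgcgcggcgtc
Rps16 (chr7:28350674-28350703, plus strand): cccgCTTCTgtcgtgacgtagcactcaatg
In each window the first 15 bases lie upstream of the RefSeq start and the last 15 in the first exon. The capital run measured 10 bases in Rplp2 and Rps6, 9 in Rps27 and Rps27l, 8 in Rpl39, 5 in Rps16, and 3 in Rps3. It spanned the start in Rplp2, Rps6, and Rps27 and lay within the first exon in Rpl39. In Rps27l, Rps16, and Rps3 it lay wholly upstream of the RefSeq start, so by that annotation it is not part of the mRNA. The GENCODE genes Rpl39, Rplp2, Rps6, Rps16, and Rps3 begin upstream of the windows shown. By GENCODE the runs of these genes thus lie within the gene bounds.

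A RefSeq promoter was matched for 56 of the 76 members. Within 25 bases on either side of the start, 28 of the 56 held a sense-strand run of at least 8 pyrimidines, and 19.4% of all 27025 promoters in the table and 19.05% of the 11292 promoters of listed genes did. The letters CTTTC, which can lie inside such a run, stood in the same stretch in 17 members (30.4%), in 6.60% of all promoters, and in 5.19% of those of listed genes. In the whole promoter of 300 bases, searched on both strands, the ETS core CCGGAAG stood in 23 members (41.1%), in 9.12% of all promoters, and in 16.7% of those of listed genes. The short CRE core TGACG, which also lies in the full CRE, stood in 29 members (51.8%), in 21.02% of all promoters, and in 31.1% of those of listed genes. The full CRE TGACGTCA stood in 5 members (8.93%, against 1.88% of all promoters and 3.21% of those of listed genes), and AAGATGG, the letters of a YY1 site, in 8 (14.3%, against 6.48% and 6.89%). The letters TATAAA stood in the 50 sense-strand bases before the start in 0 members, in 2.88% of all promoters, and in 1.47% of those of listed genes. These are matches of letters and not bound sites.

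Most ribosomal protein mRNAs were lower in the Phf21bΔ4/Δ4 hippocampus, although for all but 1 gene the change did not pass the thresholds. The changes ran from -0.68 to 0.16 (log2). Levels are in CPM, read counts scaled to the effective library size, and changes are log2 CPM in Phf21bΔ4/Δ4 minus Phf21b+/+ mice. Of the 76 members, 74 had a log2 change below 0, as 52.4% of all listed genes did. The median change of the members was -0.31, which is 80.5% of the Phf21b+/+ level, and the median of all listed genes was -0.019. In 70 members (92.1%) every Phf21bΔ4/Δ4 mouse lay below every Phf21b+/+ mouse, which held for 16.0% of all listed genes. All Phf21bΔ4/Δ4 mice lay above in 0 members and in 15.0% of all listed genes.

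The same 6 libraries gave all of these values, so the members are not independent of each other. By limma with Benjamini-Hochberg adjustment over all 14477 genes, with an FDR below 0.1 and over 1.3-fold taken as thresholds, 1 member (Rpl39) was called lower, as were 0.663% of all genes. None was called higher, against 0.553% of all genes, and 0 members were higher at an unadjusted p under 0.05 by limma or called higher by voom. At an unadjusted p under 0.05, 65 members were lower (12.0% of all genes), and the 95% interval of the change lay below 0 for 65 and spanned 0 for 11. The 75 members not called all missed the FDR threshold, and with no fold threshold the number called lower was still 1. In bulk tissue, fewer cells of a type and less RNA per cell cannot be told apart.

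**Figure D1:**
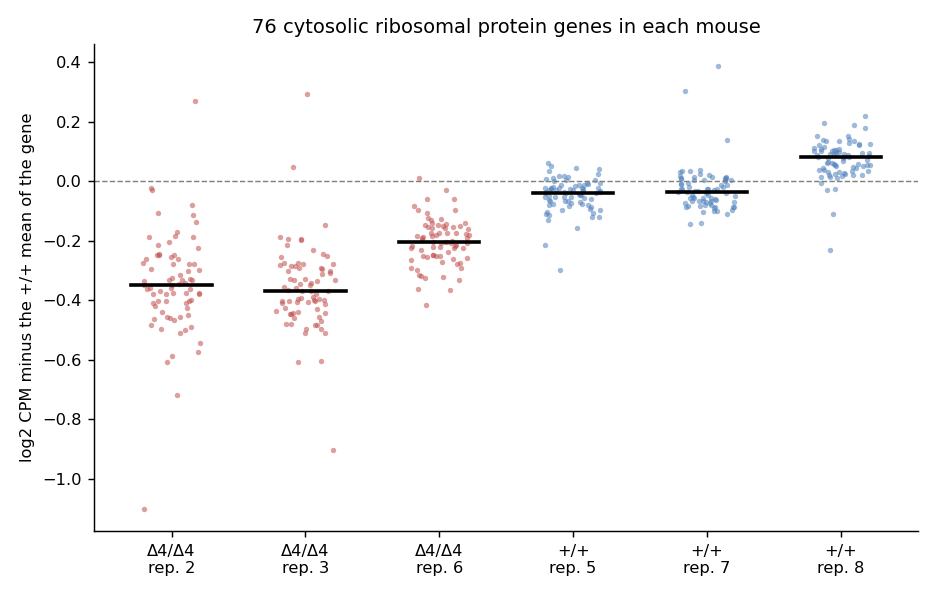
Each point is 1 of the 76 ribosomal protein genes in 1 mouse, plotted as its log2 CPM minus the Phf21b+/+ mean of that gene, and the black bars are the medians. The medians of the 3 Phf21bΔ4/Δ4 mice lie between -0.37 and -0.20 and those of the 3 Phf21b+/+ mice between -0.038 and 0.080.

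Summed over the members, the level was 8713, 8592, and 9660 CPM in Phf21bΔ4/Δ4 replicates 2, 3, and 6, and 10805, 10769, and 11747 CPM in Phf21b+/+ replicates 5, 7, and 8. The highest Phf21bΔ4/Δ4 mouse, replicate 6, thus lay below the lowest Phf21b+/+ mouse. The means were 8988 ± 585 and 11107 ± 555 CPM (SD, n = 3 each), a ratio of 0.809. As a plain share of the reads on listed genes, the members took 0.830%, 0.816%, and 0.951% in the Phf21bΔ4/Δ4 mice and 1.11%, 1.14%, and 1.21% in the Phf21b+/+ mice, a ratio of means of 0.750. The gap between the ratios is the effective library size: scaling to reads alone moved the median of all genes to -0.13 and that of the members to -0.42, while their distance stayed at -0.29 under both scalings.

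The mice of a genotype were not alike. Phf21bΔ4/Δ4 replicate 6 was the highest of its genotype in 63 members, and replicate 3 was the lowest of all 6 mice in 48 members and replicate 2 in 23. Phf21b+/+ replicate 8 was the highest of all mice in 65 members. The small and large subunits kept their proportion: the summed CPM of the small subunit was 0.647 ± 0.003 times that of the large subunit in Phf21bΔ4/Δ4 mice and 0.648 ± 0.006 times in Phf21b+/+ mice (SD, n = 3 each). The median change was -0.32 over the 31 small subunit genes, of which 29 lay below without overlap, and -0.31 over the 45 large subunit genes, of which 41 did.

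The standard deviation of the changes over the 76 genes was 0.11, somewhat larger than the median standard error of a single gene, 0.086 (log2), and these errors are shared, since the same mice gave every value. The 95% interval held the list's median for 72 members, and 59 lay within 0.1 of it. With 3 mice per genotype the intervals are wide, so holding the median does not show that genes changed equally. The other 4 intervals lay above the median and belonged to Rps29, Rpl15, Rpl29, and Rps16. Leaving out the pair at either end (Rps27l, Rps10, Rps16, and Rpl29), the changes ran from -0.45 to -0.12.

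**Figure D2:**
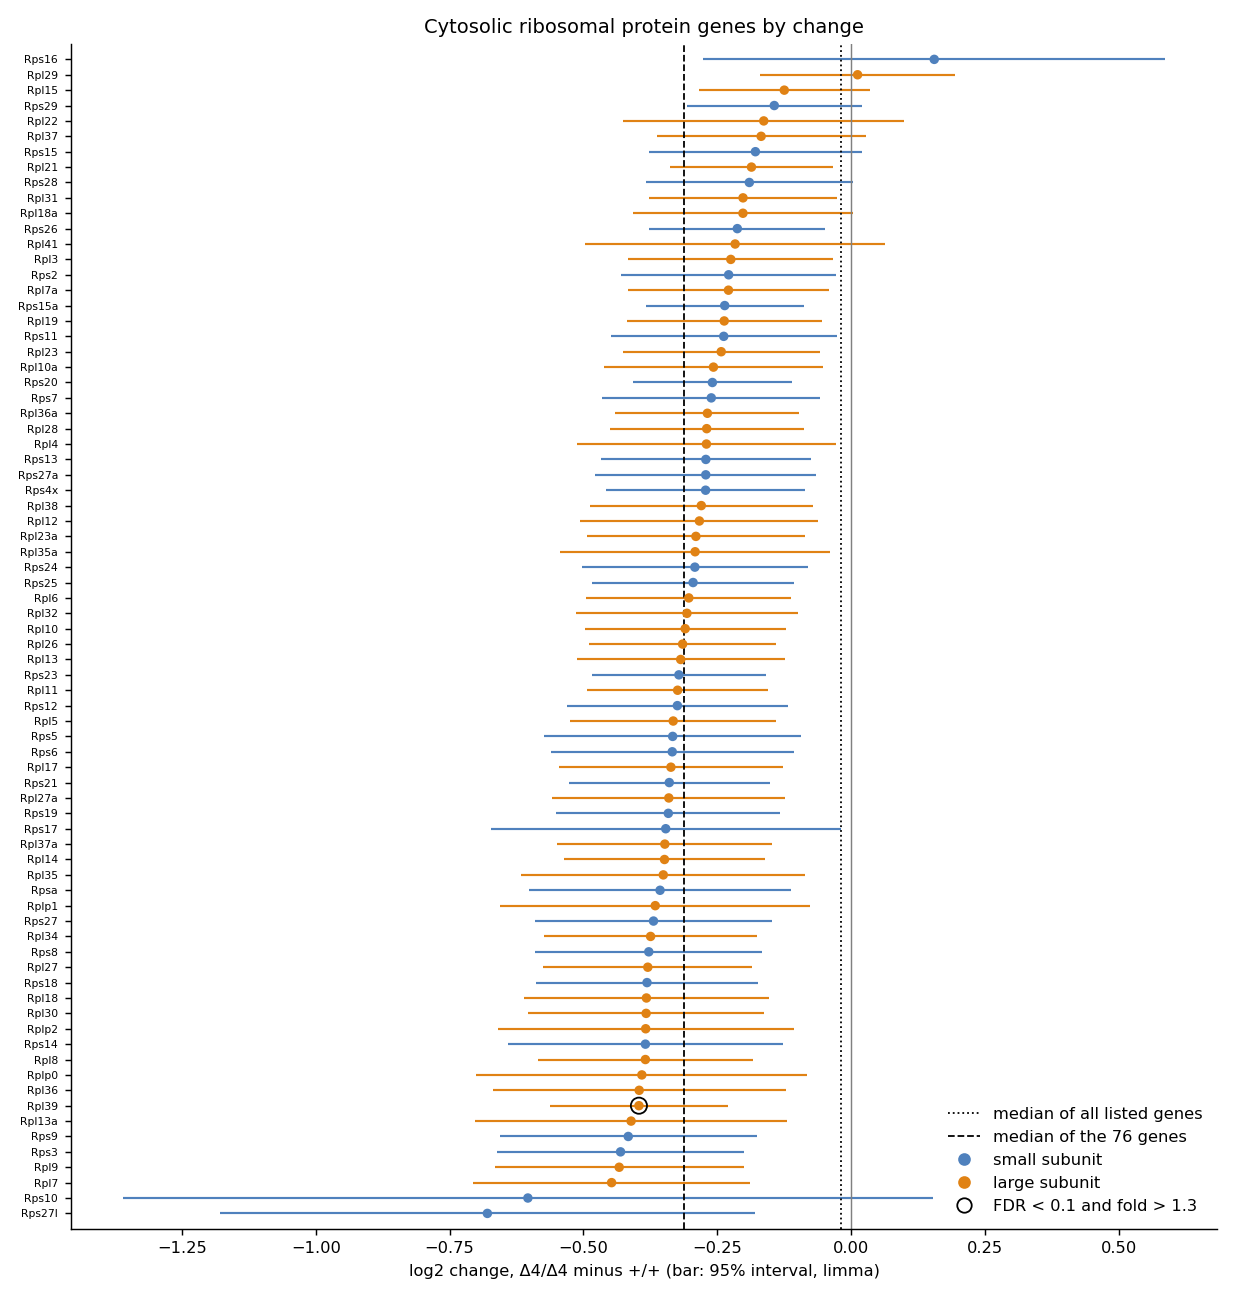
The 76 genes are ranked by log2 change (Phf21bΔ4/Δ4 minus Phf21b+/+), with 95% intervals from limma, in blue for the small and orange for the large subunit. The dashed line is the median of the 76 genes (-0.31), the dotted line that of all listed genes (-0.019), and the circle marks Rpl39, the 1 gene past both thresholds.

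Rpl39 encodes a small protein of the 60S subunit that lines the exit tunnel of the growing peptide. It lies on chromosome X (37082520 to 37085402 in GENCODE, minus strand, GRCm38), where its start is upstream of the RefSeq start used for the window above. It stood at 46.4, 46.9, and 48.1 CPM in Phf21bΔ4/Δ4 replicates 2, 3, and 6 and at 58.9, 63.1, and 64.3 CPM in Phf21b+/+ replicates 5, 7, and 8, with no overlap. The log2 change was -0.40 (SE 0.070, limma adjusted p = 0.089), from 62.1 ± 2.85 to 47.2 ± 0.862 CPM (SD, n = 3 each). Its adjusted p ran from 0.011 to 0.34 over 19 alternative settings, and the call was lost when any mouse other than Phf21bΔ4/Δ4 replicate 6 was left out. Without that mouse 32 members were called lower, as were 9.29% of all genes.

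The largest decreases on the log2 scale were those of Rps27l, Rps10, Rpl7, Rpl9, and Rps3. Rps27l, a paralog of Rps27 known as a p53 target, stood at 7.68, 6.76, and 9.48 CPM in the Phf21bΔ4/Δ4 mice and at 11.3, 16.5, and 10.8 CPM in the Phf21b+/+ mice. The genotypes did not overlap, and Phf21b+/+ replicate 7 stood apart from its group. The change was -0.68 (SE 0.21, limma adjusted p = 0.15). Its widely used partner Rps27, a zinc-binding protein of the 40S subunit, stood at 103, 94.0, and 108 CPM against 121, 131, and 143 CPM, also without overlap. Its change was -0.37 (SE 0.093, limma adjusted p = 0.13), and the difference between the 2 paralogs was not tested.

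Rps10, a 40S protein near the mRNA entry of the ribosome, had the lowest counts, 16 reads in 1 mouse. It stood at 0.675, 1.14, and 1.13 CPM against 1.42, 1.604, and 1.35 CPM, and its change of -0.60 (SE 0.32) had an interval from -1.36 to 0.15. Its exons overlap a readthrough gene named RPS10-NUDT3 and Gm15420, so its reads could be counted elsewhere and its level is uncertain.

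Rpl7, a protein of the 60S subunit, stood at 196, 181, and 232 CPM in the Phf21bΔ4/Δ4 mice and at 258, 283, and 287 CPM in the Phf21b+/+ mice. The genotypes were separate, and the change was -0.45 (SE 0.11, limma adjusted p = 0.13). Rpl9, a 60S protein at the base of the stalk, went from 357 ± 31.7 to 264 ± 18.8 CPM, a change of -0.43 (SE 0.098, limma adjusted p = 0.13). Rps3, a 40S protein at the mRNA entry that also has roles in DNA repair, stood at 277, 271, and 315 CPM against 374, 369, and 421 CPM. Its change was -0.43 (SE 0.097, limma adjusted p = 0.13), and none of its 75-base windows was repeated in another annotated transcript.

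The smallest decreases and the 2 increases were those of Rpl22, Rps29, Rpl15, Rpl29, and Rps16. Rps16, a 40S protein near the site where tRNA binds, stood at 25.9, 26.3, and 20.1 CPM in the Phf21bΔ4/Δ4 mice and at 17.5, 26.5, and 21.4 CPM in the Phf21b+/+ mice. The groups overlapped, and the change of 0.16 (SE 0.18) had an interval from -0.28 to 0.59. Rpl29, a 60S protein also known to bind heparin, stood at 31.0, 32.5, and 31.6 CPM against 32.7, 29.8, and 31.7 CPM. Its change was 0.01 (SE 0.076) with an interval from -0.17 to 0.19, which lay above the list's median, and its sign turned in 5 of 19 alternative settings. Rpl15, Rps29, and Rpl22 had changes of -0.12, -0.14, and -0.16, each without overlap and each with an interval that spanned 0 (Rpl22 from -0.43 to 0.10). In Rpl22, which also binds RNA outside the ribosome, the Phf21bΔ4/Δ4 values of 123, 95.2, and 121 CPM lay just below 124, 126, and 128 CPM, with replicate 3 apart from the rest.

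The stalk proteins form the arm of the 60S subunit that recruits the translation factors. Rplp0, which anchors the stalk, stood at 155, 138, and 193 CPM in the Phf21bΔ4/Δ4 mice and at 207, 201, and 224 CPM in the Phf21b+/+ mice. Rplp1 stood at 277, 319, and 370 CPM against 407, 390, and 440 CPM. Rplp2 stood at 88.1, 99.5, and 120 CPM against 133, 131, and 134 CPM. In all 3 genes the genotypes were separate and Phf21bΔ4/Δ4 replicate 6 was nearest to the Phf21b+/+ mice. The changes were -0.39 (SE 0.13), -0.37 (SE 0.12), and -0.38 (SE 0.12) for Rplp0, Rplp1, and Rplp2, with limma adjusted p between 0.15 and 0.17.

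Rps6, the 40S protein whose phosphorylation is the usual marker of mTORC1 activity, stood at 82.2, 82.4, and 95.7 CPM against 101, 109, and 117 CPM. The genotypes were separate, with a change of -0.33 (SE 0.095, limma adjusted p = 0.15). Rpsa, a 40S protein that also serves as a laminin receptor, stood at 176, 174, and 206 CPM against 244, 215, and 253 CPM. Its change was -0.36 (SE 0.10, limma adjusted p = 0.15).

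Besides Rpl39, 3 members lie on the X chromosome. Rpl10, a late-joining 60S protein, went from 110 ± 1.84 to 88.6 ± 6.97 CPM, a change of -0.31 (SE 0.079). Rpl36a and Rps4x had changes of -0.27 each (SE 0.072 and 0.078). The median was -0.29 over the 4 X-linked and -0.32 over the 72 autosomal members, and 4 of 4 and 66 of 72 lay below without overlap. Xist was read in all 6 mice, at 86.9 to 216 CPM, and ranged over both genotypes. Ddx3y, Uty, Eif2s3y, and Kdm5d, all Y-linked, were not listed, where listing needed 1 CPM or more in at least 2 samples. By these genes all 6 libraries read as female, which the labels do not state.

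Levels can be compared between genes only per length, here as mean CPM of the 6 mice per kb of annotated exon. The highest members on this scale were Rplp1 at 735, Rps15 at 322, Rpl4 at 261, Rps29 at 209, and Rpl8 at 204 CPM per kb. The lowest were Rps10 at 0.528, Rpl13a at 10.7, Rps27l at 12.8, Rpl10a at 15.5, and Rpl35a at 17.2 CPM per kb. All members at both ends of this order had changes below 0. Among the highest, the log2 changes were -0.37 in Rplp1, -0.18 in Rps15, -0.27 in Rpl4, a 60S tunnel protein, -0.14 in Rps29, and -0.38 in Rpl8, a 60S protein near the catalytic centre. Rpl8 went from 313 ± 6.45 to 240 ± 19.9 CPM (limma adjusted p = 0.13). Among the lowest, the changes were -0.41 in Rpl13a, known for its role in silencing inflammatory mRNAs, -0.26 in Rpl10a, and -0.29 in Rpl35a, beside those of Rps10 and Rps27l above. The signs of Rps15 and Rps29 turned in 1 of the 19 alternatives, the correction for gene length, to 0.03 and 0.06, and 72 of the 76 members had a change below 0 in it.

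Among the 76 members the change had little relation to mean level, exon length, GC content, or repeated windows. Most changes lay near the list's median, 59 of them within 0.1 of it, and a factor that all members share would not show in this comparison. As a description over genes that share all libraries, Spearman's rho with the change was -0.025 for the mean log2 CPM, -0.081 for exon length, -0.081 for exonic GC content, and -0.019 for the share of windows repeated in other genes. The 28 members with a pyrimidine run near the start, upstream of it or after it, had a median change of -0.33, with 28 lying below without overlap. The 28 others with a matched promoter had -0.28, with 25 lying below. With and without the ETS core the medians were -0.31 and -0.31, and with and without the short CRE core -0.32 and -0.29.

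Ribosomal protein genes have many processed copies in the genome, so reads can be shared with them. At least 1 window of 75 bases recurred in a transcript of another annotated gene in 74 of the 76 members, with a median of 43.7% of windows. The highest shares were 98.5% in Rps27, 92.5% in Rpl5, 91.3% in Rpl9, 89.2% in Rpl35, and 87.6% in Rpl10a, and the levels of these genes are uncertain to that extent. Rpl5, which carries the 5S ribosomal RNA and restrains MDM2, had a change of -0.33 (SE 0.081), and Rpl35, a protein at the tunnel exit, had -0.35 (SE 0.11). The 19 members with under 25% of windows shared had a median change of -0.33 and all 19 lay below without overlap. The 16 members with at least 75% shared had -0.32, and 15 of them lay below. Exons of 36 members overlap those of another gene, among them snoRNA genes in the introns or exons of the host. These 36 had a median of -0.29 and the 40 others one of -0.33.

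The members are short genes, and short genes as a whole were lower. The median exon length was 1806 bp for members and 4540 bp for all listed genes. Among the other listed genes, split into 5 equal groups by length, the median change was -0.12 in the shortest group, -0.04, 0.00, and 0.02 in the next ones, and 0.09 in the longest, and the share lying below without overlap went from 21.7% to 11.0%. The shortest group held 53 members, with a median of -0.31 and 47 below. The next groups held 16 members with -0.31, 5 with -0.34, and 2 with -0.26, and all of these lay below. With the trend on length removed from each mouse, the median of the members was -0.21, and 56 of them lay below without overlap. The share of all listed genes lying below was not counted after this correction. The part of gene length in the rest of the change was not tested.

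**Figure D3:**
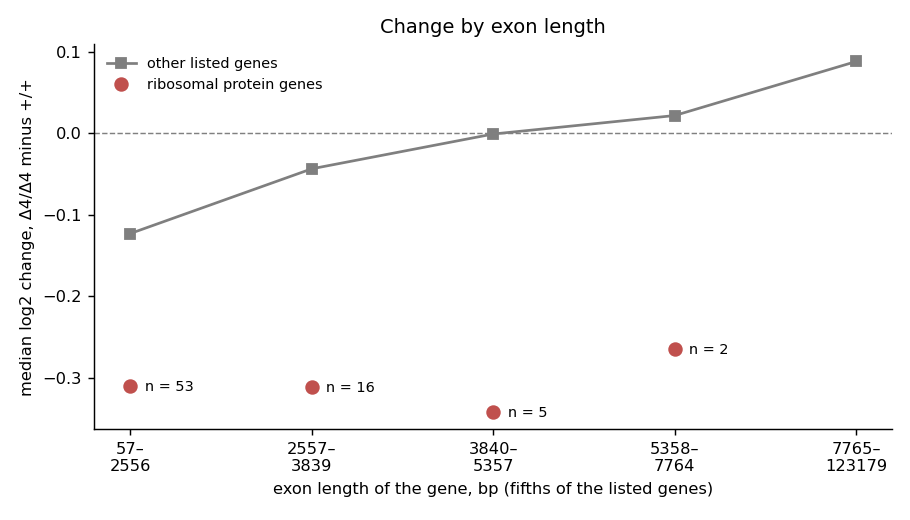
Median log2 change of the ribosomal protein genes (red, with their number) and of the other listed genes (grey), in 5 equal groups by exon length. The grey medians go from -0.12 to 0.09, and the red ones lie between -0.34 and -0.26 in the 4 groups that hold members.

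Ribosomal proteins whose symbols the rule did not take had a median of -0.30 over 6 genes. Of these, 3 lay below without overlap, beside 16.0% of all listed genes. Rack1, a 40S scaffold for kinases, stood at 187, 182, and 216 CPM against 245, 246, and 265 CPM, a change of -0.37 (SE 0.090, limma adjusted p = 0.13). Fau, which encodes the 40S protein eS30 fused to a ubiquitin-like protein, had a change of -0.34 (SE 0.092). Rps3a1, a 40S protein whose symbol ends in a number and was likewise not taken, had a change of -0.36 (SE 0.098).

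The other mRNAs known to begin with a TOP sequence, a list that also holds Rack1 and Fau, had a median of -0.20. Of 17, 11 lay below without overlap, 0 above, and 0 were called, beside 16.0% below and 15.0% above among all listed genes. Tpt1, a growth-related TOP mRNA chosen after its values were seen, had a change of -0.45 (SE 0.14), and Eef1a1, the main elongation factor, chosen likewise, by -0.37 (SE 0.14). The mTORC1 pathway with LARP1 had no gene of 15 below, 4 above (26.7%), and a median of 0.05, and 6 of the 15 had a change below 0. These are long genes, with a median exon length of 8366 bp. In the longest of the length groups of other genes, 11.0% lay below and 23.2% above, with a median of 0.09. Mtor had a change of 0.39 (SE 0.12, limma adjusted p = 0.16) and Tsc2, which restrains mTORC1, by 0.27 (SE 0.082, limma adjusted p = 0.15).

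**Figure D4:**
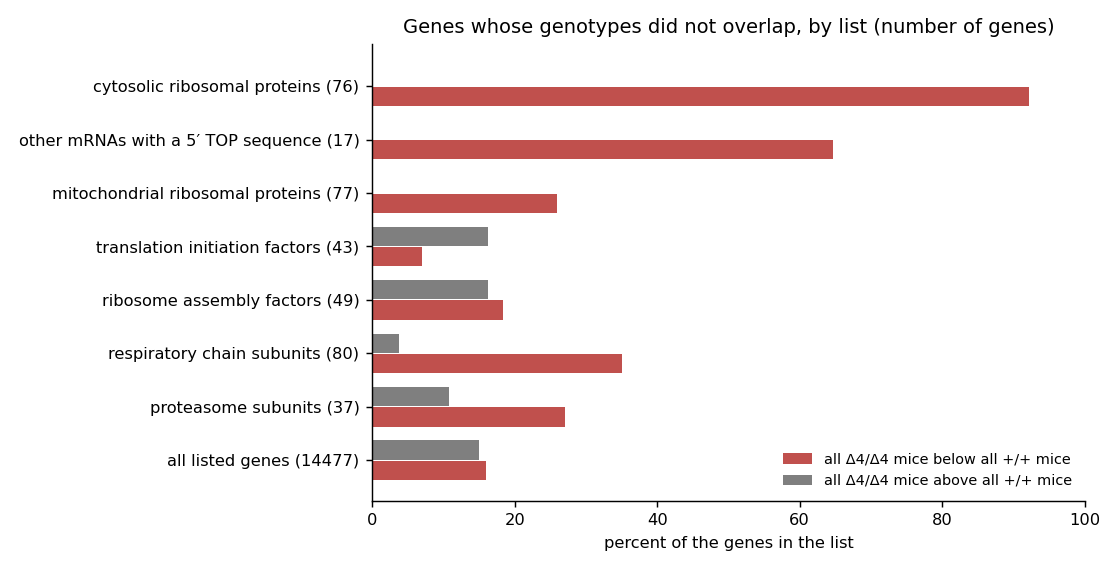
Percent of genes in each list for which all Phf21bΔ4/Δ4 mice lay below (red) or above (grey) all Phf21b+/+ mice. The ribosomal protein genes reach 92.1% below and 0% above, and all listed genes 16.0% and 15.0%.

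The mitochondrial ribosome, the respiratory chain, and the proteasome had medians closer to that of all listed genes than the ribosomal proteins did. None of the lists in this paragraph had a called member. Of all listed genes, 16.0% lay below and 15.0% above without overlap. In the shortest of the length groups of other genes, 21.7% lay below and 7.12% above, with a median of -0.12. The median exon lengths of the mitochondrial ribosome, 2533 bp, and of the respiratory chain, 1578 bp, lie in that group. The mitochondrial ribosome, built from a separate set of proteins, had a median of -0.08, with 20 of 77 genes below and 0 above. Mrpl54 had a change of -0.40 (SE 0.12) and Mrps23 by -0.25 (SE 0.074). The respiratory chain had a median of -0.09, with 28 of 80 below and 3 above, and Atp5e had a change of -0.30 (SE 0.067) and Ndufb2 by -0.32 (SE 0.086). The proteasome had a median of -0.08, with 10 of 37 below and 4 above, led by Psma7 at -0.25 and Psmd3 at 0.18. Translation initiation factors had a median of -0.02, with 3 of 43 below and 7 above, and Eif4g1 and Eif5b had changes of 0.44 each. Of 11 elongation and termination factors 5 lay below and 2 above, with a median of 0.03, Gspt2 at 0.36, and Eef1g at -0.20. Ribosome assembly factors had 9 of 49 below and 8 above, and Rrp12 stood at 0.46 and Ncl, nucleolin, at 0.38. The median of these factors was -0.04, and 29 of the 49 had a change below 0. RNA polymerase I genes had 2 of 14 below and 2 above, and Taf1d stood at -0.43 and Polr1c at -0.24. Their median was 0.03, and 6 of the 14 had a change below 0. Of 17 noncoding hosts of snoRNAs 7 lay below and 0 above, with Snhg1 at -0.58 and Zfas1 at -0.31. The median of these hosts, -0.41, was lower than that of the ribosomal proteins, -0.31. The difference between the ribosomal proteins and any of these lists was not tested.

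Markers of several regions and cell types differed between the genotypes, and those of others overlapped. Of all listed genes, 16.0% lay below and 15.0% above without overlap. Medial habenula markers, a region next to the hippocampus, summed to 86.3 to 140 CPM in Phf21bΔ4/Δ4 and 496 to 638 CPM in Phf21b+/+ mice, with 12 of 12 below and 10 called lower, led by Gpr151, Chrna3, Tac2, and Slc5a7. Thalamus markers summed to 187 to 259 against 505 to 789 CPM, with 6 of 10 below and Tcf7l2 and Zic1 called lower. Choroid plexus markers summed to 28.2 to 88.7 against 35.4 to 16037 CPM, with 1 of 10 below, Otx2 called lower, and Ttr at 14542 CPM in Phf21b+/+ replicate 7. The lowest Phf21b+/+ sum of these markers thus lay within the Phf21bΔ4/Δ4 range. Dentate granule cell markers had 7 of 10 below (Pdzd2 and Glis3 called lower; 373 to 879 against 954 to 1097 CPM), and CA2 and CA3 markers had 4 of 9 below (316 to 520 against 513 to 530 CPM, Pcp4 at -1.05 and Cacng5 at -1.40). CA1 markers had 4 of 7 above (Gpr161, Fibcd1, and Mpped1 called higher; 865 to 982 against 300 to 371 CPM), and interneuron markers had 7 of 10 above (Gad2 called higher; 986 to 1063 against 667 to 741 CPM). Endothelial and pericyte markers had 6 of 10 above (266 to 390 against 181 to 244 CPM, Pdgfrb at 0.62 and Rgs5 at 0.84). Astrocytes had 2 of 10 below (6423 to 7633 against 5776 to 7253 CPM, Aqp4 called lower), with a median change of 0.05. Oligodendrocytes had 0 of 10 either way (6226 to 9486 against 7472 to 10303 CPM, Mobp at -0.62 and Mbp at -0.47), with a median of -0.17. Microglia had 3 of 10 above (486 to 547 against 496 to 531 CPM, Csf1r at 0.19 and Cx3cr1 at 0.14). However, 6 of the 10 microglia markers had a change below 0, and their median was -0.09. Of these genes, 3 of 12 habenula and 2 of 10 choroid plexus markers had 0 reads in at least 1 mouse. The part of these cells in the change of the ribosomal proteins was not tested.

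Over the whole matrix, 20495605 to 24881257 reads per mouse lay on listed genes. Phf21b, the targeted gene, stood at 2.15, 3.57, and 3.87 CPM in Phf21bΔ4/Δ4 and 6.50, 5.23, and 6.47 CPM in Phf21b+/+ mice, a change of -0.96 (SE 0.26, limma adjusted p = 0.14), so its mRNA was reduced and not absent. Mitochondrially encoded mRNAs had 0 of 7 genes below or above with a median of -0.03 (mt-Nd6 at -0.19 and mt-Co1 at -0.20). Nuclear-retained RNAs had 0 of 8 either way with a median of 0.18, Neat1 at -1.30, and Rian at 0.35.

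**Figure D5:**
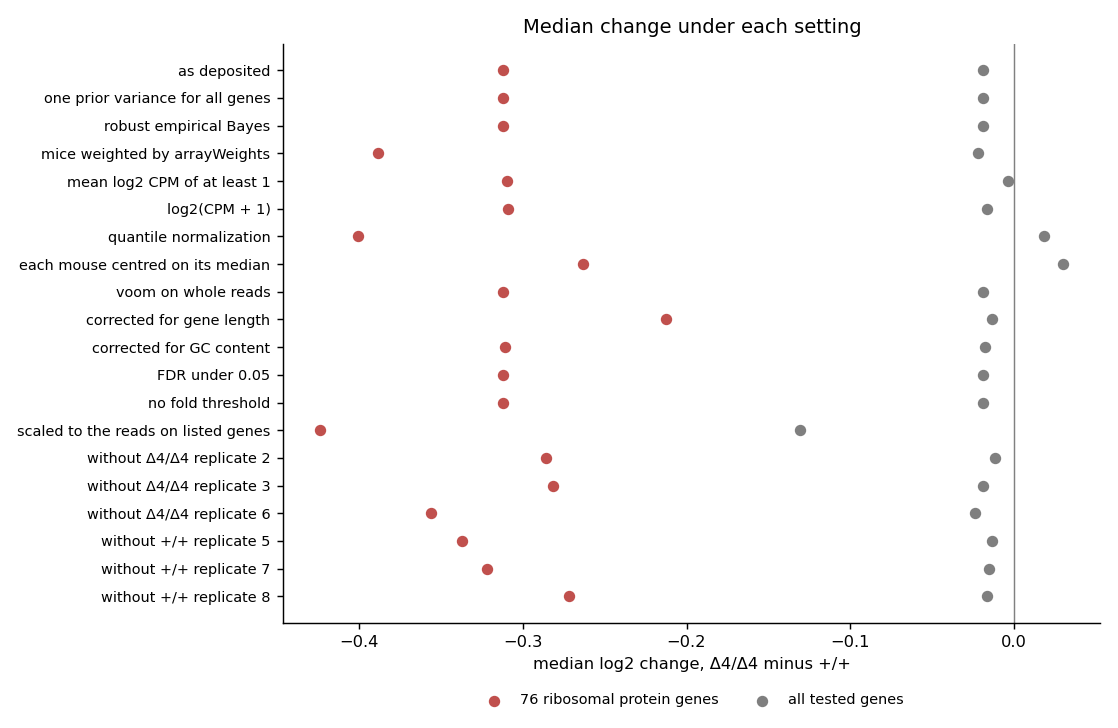
Median log2 change of the ribosomal protein genes (red) and of all tested genes (grey) with the values as deposited and under each of 19 alternative settings. The red median lies below 0 and below the grey one in every setting shown, from -0.42 to -0.21.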

How the data were processed

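Hippocampal RNA of 6 mice was sequenced as 1 library per mouse. The authors trimmed reads with Trimmomatic 0.39, mapped them to GRCm38 with STAR 2.7.3a, counted them with featureCounts (Subread 1.6.4), kept genes with at least 1 CPM in at least 2 samples, and normalized with edgeR. The deposited values are log2 CPM scaled to effective library size. The strandedness of the counting is not given in the sources used here. Reads were worked out from the steps of the values (100% whole within 0.1) and used for depth, CPM, and voom. All value columns belonged to the 6 mice.

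Genotypes came from the sample labels and share no replicate numbers. They were compared with limma 3.58.1 (lmFit, eBayes with trend) in R 4.3.3 on all 14477 genes, with Benjamini-Hochberg adjustment. Calls needed an FDR below 0.1 and over 1.3-fold, the study's thresholds. The authors' own test was that of edgeR. The test was checked on simulated data. P-values measure the spread between 3 mice per genotype, for which an exact permutation test cannot go below p = 0.1. Members and gene lists were chosen with earlier results of these data known.

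Genes named are the called members, the 5 largest changes each way, the 5 highest and lowest per kb, the stalk, X-linked members, Rps27l with its partner, Rps6, Rpsa, and the 5 with most repeated windows, and of each list the called genes with the smallest adjusted p (at most 4) or else the 2 with the smallest p. Exon lengths, positions, and 75-base windows are from GENCODE M21, whereas the authors counted over another release, and windows were searched in annotated transcripts because no genome sequence was used here. Copies outside the annotation were not counted. Python 3.11.15 with NumPy 2.4.6, pandas 2.3.3, and matplotlib 3.10.9 made the tables and plots.

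Alternatives were 1 prior variance for all genes, robust empirical Bayes, arrayWeights, only genes of mean log2 CPM 1 or more, voom, quantile normalization, log2(CPM + 1), median centring per mouse, corrections for gene length and GC content, an FDR under 0.05, no fold threshold, and leaving out each mouse. Scaling to the reads on listed genes was added after the data were seen.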

Additional observations from a re-analysis of the deposited data

How the results depend on the processing

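The members' median stayed below 0, and 0 members were called higher, under all 19 alternatives. The median was -0.40 with quantile normalization, -0.21 with the correction for gene length, and -0.42 with scaling to reads, where the ratio of summed levels was 0.738, 0.861, and 0.750 in place of 0.809. The count called lower, 1 with the values as deposited, was 0 with 1 prior variance, a mean log2 CPM of at least 1, median centring, voom, the length correction, and an FDR under 0.05. It was 8 with quantile normalization (0.656% of all genes), 16 with scaling to reads (1.33%), and 40 with arrayWeights, which gave Phf21b+/+ replicate 8 a weight of 4.63 and Phf21bΔ4/Δ4 replicate 6 one of 0.343 and called 14.3% of all genes lower. Leaving out 1 mouse gave between 0 and 32 calls: 32 without Phf21bΔ4/Δ4 replicate 6 and 0 when any other mouse was left out. Over these 6 fits the median ran from -0.36 to -0.27. The number of members without overlap and below was 56 to 75 under other settings of all 6 mice, and the length correction put 1 member above. With 1 mouse left out that number was 70 to 73, where a lack of overlap is easier to reach. The share of all listed genes without overlap was counted only for the values as deposited. The cause of these differences was not tested. No paired analysis was possible because the genotypes share no replicate numbers. With 3 mice per genotype, 1 library can decide a call. Exon overlap, shared windows, and unknown strandedness limit single genes such as Rps10 and Rps27, and 16 reads in 1 mouse limit Rps10.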
